A study of Mus musculus with 12 samples.

Results

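The macrophage and myeloid genes of the mouse yolk sac described here are 35 genes, out of 18193 genes that the arrays measured. They were chosen by name, and each was read through a probe set that the array annotation assigns to that gene alone. Where a gene had several such probe sets, the brightest over the 12 arrays was used: 21 members had 1 probe set and 14 had several. All 35 were measured and tested, with no filter on low values.

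Whole yolk sacs of wild type and Z/Norrin mouse embryos were profiled at embryonic day 8.5 (E8.5) and embryonic day 10.5 (E10.5), with 3 arrays in each of the 4 groups. Each array carried RNA from 3 to 5 embryos, pooled, of both genders, on a mixed C57Bl6/129 background. Z/Norrin, called Norrin from here on, is a conditional allele that over-expresses Norrin, a secreted ligand of the Wnt receptor Frizzled4, outside its normal sites. The driver that switched the allele on, and the cells in which it did so, are not given in the sources used here. Nothing in the labels says whether pools of a group came from separate litters, so p-values measure the spread between these pools.

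The yolk sac is where the first macrophages of the mouse embryo arise, from blood progenitors of the yolk sac wall, before the liver and the bone marrow make blood. These cells mature under the colony stimulating factor receptor Csf1r and the transcription factor PU.1, encoded by Spi1, and they seed tissues of the embryo, including the microglia of the brain. As they mature they gain receptors for antibodies, dying cells and chemokines, lysosomal proteases and the complement protein C1q. Some of the members are also made by other cells of the yolk sac: Lyve1, Stab1 and Mrc1 are read in endothelium, Mpo in early myeloid progenitors, and Lcp1 and Laptm5 in most white blood cells.

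Values are log2 intensities as the authors deposited them, so a difference of 1 is a 2-fold change. Adjusted p-values come from limma, with Benjamini-Hochberg adjustment over all 18193 genes of a comparison, and a gene is called where its adjusted p is under 0.05. Genes for odorant, vomeronasal and taste receptors, 74 in all, served as genes without signal in this tissue, and the level under which 95% of them lay is called the background: 7.19 in wild type at E8.5, 6.98 in Norrin at E8.5, 7.23 in wild type at E10.5 and 7.16 in Norrin at E10.5.

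The labels' tissue was checked first. All 13 measured genes of visceral endoderm, the absorptive outer layer of the yolk sac, were above the background in every group, with a median level between 12.61 and 13.50 in single pools. Ndp, the gene of Norrin, read 4.45 to 4.68 in all 12 pools, with Norrin differences of -0.05 and 0.00 at the earlier and the later stage (adjusted p = 0.923 and 0.999). Whether the probed stretch lies in the transcript of the allele is not given, so the level of Ndp checks nothing here. Pools of a group correlated at 0.975 to 0.992 over all genes, and the standard error of the Norrin effects had a median of 0.16. The Norrin pool 2 of each stage read higher for trophoblast genes than its companions: the median of 6 trophoblast genes was 7.16 there at E8.5, against 5.94 and 6.33, and 10.17 at E10.5, against 6.46 and 6.63. Each stage also seems to have been normalised in a run of its own, since values repeated exactly within a stage and never across stages. If so, stage and normalisation run cannot be told apart.

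More members stood above the background at E10.5 than at E8.5. At E8.5, 9 of the 35 members in wild type and 10 in Norrin had a mean above the background, where 55.4% and 57.9% of all genes did. At E10.5 the counts were 22 and 24, against 59.7% and 61.0% of all genes. The later counts are near the share of all genes, so they do not check the macrophage label. The 8 members above the background in all 4 groups were Laptm5, Lcp1, Csf1r, Csf2rb, Fcgr3, Mrc1, Lyve1 and Stab1. The 10 members at or under it in every group were Ptprc, Spi1, Trem2, Cd33, Timd4, Itgam, Itgb2, Mpeg1, Cybb and Aif1. The level of these 10 was not told apart from that of probe sets without signal. The other 17 crossed it in some groups.

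Most members rose between the stages, and 1 of them was called between genotypes. In wild type 21 of 35 were higher at E10.5 and 2 were lower, where 25.4% of all genes were called higher and 7.12% lower. In Norrin limma called 22 higher and 0 lower (2 lower at an unadjusted p under 0.05), where 28.2% and 9.69% of all genes were called. The median change of the members was 0.81 in wild type and 0.91 in Norrin, beside 0.14 and 0.15 over all genes. In wild type 29 of the 35 changed by more than the median of all genes, and in Norrin 28. Called higher in both genotypes were 18 members, while Fcgr3, Lyz2 and Aif1 were called higher only in the wild type comparison and Mrc1, Cd14, Cd33 and Fcgr1 only in the Norrin comparison. With pools of the same number as a block 26 members were higher and 3 lower in each genotype, where 36.7% and 14.9% of all genes were called in wild type and 39.4% and 17.8% in Norrin. Each block lies within a stage, so it takes spread between pools out of the error of a stage comparison. Block p-values between stages can therefore be too small, and they are not read as support for a stage change. No difference of the stage change between genotypes passed the test for any member, as described below. In whole tissue, more macrophages and more RNA per macrophage cannot be told apart.

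Some markers of other cells rose between the stages too. Of all genes, 25.4% were called higher in wild type and 28.2% in Norrin. Of 9 decidua genes, which mark the maternal tissue around the embryo, 5 were higher and 1 lower in wild type (median change 0.61) and 5 were higher and 0 lower in Norrin (0.83). Of 9 mesenchyme genes 4 were higher in wild type and 6 in Norrin. Of 7 mast cell and basophil genes 4 were higher and 1 lower in wild type and 4 and 2 in Norrin. Of 7 megakaryocyte genes 6 were higher and 0 lower in wild type (median 0.85) and 5 and 1 in Norrin (0.73). On the centred scale the decidua counts higher were 2 and 5, the mesenchyme counts 4 and 4, the mast cell counts 1 and 0 and the megakaryocyte counts 6 and 3. Of all genes, 12.9% were called higher on that scale in each genotype. The log2 of the summed level of the decidua genes ran from 11.11 to 11.51 in the wild type E8.5 pools and from 11.87 to 12.04 at E10.5, and from 11.22 to 11.54 and 12.38 to 12.59 in Norrin. The part of these cells in the members' changes was not tested.

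The size of many of these rises is known only as a bound. Of the 21 members called higher in wild type, 13 had an E8.5 mean at or under the background and 4 more were at or under it at both stages; in Norrin it was 15 and 3 of 22. For members dim in 1 stage, a bound was taken from the brighter mean and, for each pool of the dimmer stage, the higher of the background and its own value. Changes of dim members on the log2 scale are what the probe sets read, and folds are given only as such bounds. On the deposited scale those bounds ran from 1.07-fold for Cx3cr1 to 2.62-fold for C1qb among the called rises in wild type. Each sets the mean of 1 stage against the background of the other, so it holds only if the stages share a scale. No bounds were taken on the other scales, where the median change of all genes was lower.

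How many members passed depends on the scale, since the array medians were 6.59 to 6.73 at E8.5 and 6.97 to 7.01 at E10.5. Centring each array on its median moved the median change of all genes from 0.14 to -0.16 in wild type and from 0.15 to -0.21 in Norrin. Quantile normalisation over the 12 arrays gave -0.06 and -0.05. Of the genes called in wild type, 78.1% were higher on the deposited scale, 32.7% after centring and 44.2% after quantile normalisation, and in Norrin 74.4%, 28.3% and 44.7%. In wild type fewer members passed under these scales, and in Norrin fewer passed higher and more passed lower. In wild type 13 were higher and 2 lower under each, with 12.9% and 16.0% of all genes higher and 26.5% and 20.1% lower. In Norrin 18 were higher and 5 lower after centring and 17 and 5 after quantile normalisation, with 12.9% and 16.9% of all genes higher and 32.7% and 20.9% lower. The same 13 members rose in wild type under all 3 scales: Adgre1, C1qb, C1qc, Cd53, Coro1a, Csf1r, Ctss, Cx3cr1, Fcgr3, Lcp1, Mpo, Stab1 and Tyrobp. Aif1, C1qa, Cd68, Cybb, Fcer1g, Irf8, Lyz2 and Ptprc lost their call in wild type, and Cd33, Fcer1g, Fcgr1, Mrc1 and Ptprc lost theirs in Norrin. The added lower calls in Norrin were Csf2rb, Csf2rb2, Timd4, Itgam and Itgb2. Counted against the median of all genes on each scale, 27 to 29 members lay above it in wild type and 27 or 28 in Norrin.

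**Figure D1:**
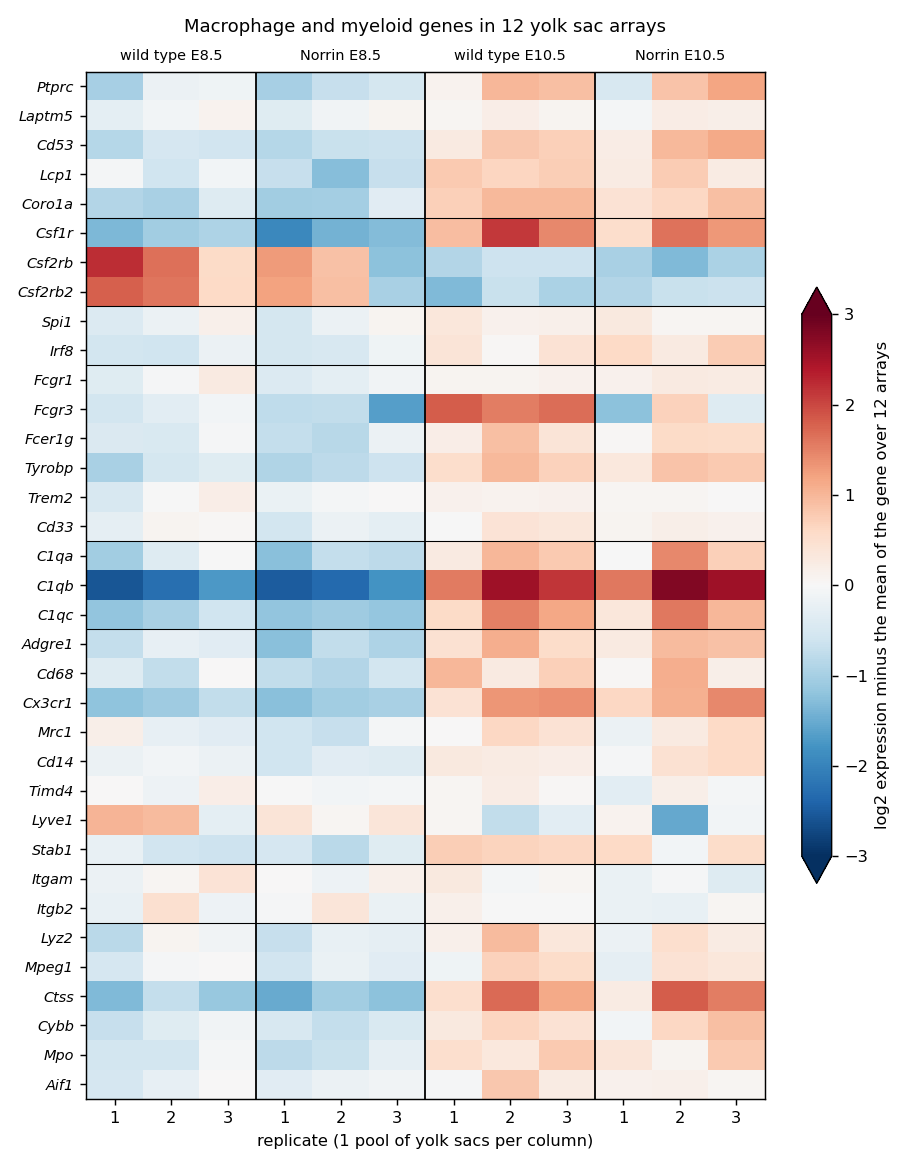
Each row is one of the 35 members and each column one of the 12 pools; the colour is the log2 level minus the gene's mean over the 12 pools, and rows are ordered by role. Most rows turn from low to high between the E8.5 and the E10.5 columns in both genotypes, while Csf2rb, Csf2rb2 and Lyve1 run the other way and Fcgr3 is highest in the wild type E10.5 pools.

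The regulatory sequence in front of these genes is shown for 4 members that rose in wild type on the deposited scale and hold a PU.1 match. For Fcgr3, the only member called between genotypes, the sequence before a start site inside the gene is shown. That gene spans 171051169 to 171065915 on chromosome 1, and the sequence in front of its outer 5′ end was not read. RefSeq start sites on build GRCm38.p6 gave promoter windows of 300 bases, 250 before the start and 50 after, for 26 of the 35 members, in 31 windows. The 9 members without a window were Adgre1, C1qa, Cd14, Csf1r, Csf2rb, Itgb2, Lyve1, Spi1 and Tyrobp. PU.1 binds a purine-rich sequence whose core was searched as AGGAAGT on both strands. It stood in the windows of 10 members, C1qb, C1qc, Cd53, Csf2rb2, Ctss, Fcgr1, Lyz2, Mpo, Mrc1 and Ptprc. That is 35.5% of the members' windows, beside 9.35% of the 32851 windows of all genes. The windows of Cx3cr1, Coro1a, Stab1, Lcp1, Irf8, Fcgr3, Fcer1g, Cd68, Cybb and Aif1, which also rose in wild type, hold no core. Of the 10 members with a core, Fcgr1 and Mrc1 were not called in wild type and Csf2rb2 was lower. The sequences below run from 200 bases before the start to 10 bases after it, 5′ to 3′ on the strand of the gene. Capitals mark the PU.1 core, or the longer PU.1 box GAGGAAGT that contains it, in C1qb, C1qc, Ctss and Lyz2, all read on the opposite strand, and the sequence TTNCNNAA of CEBP factors in Fcgr3, whose match farther from the start reads on the printed strand and whose nearer match reads on the opposite strand. The windows lie at chr4:136886191-136886400 on the minus strand for C1qb, chr4:136892905-136893114 on the minus strand for C1qc, chr3:95526586-95526795 on the plus strand for Ctss, chr10:117282263-117282472 on the minus strand for Lyz2 and chr1:171059394-171059603 on the minus strand for Fcgr3.
C1qb: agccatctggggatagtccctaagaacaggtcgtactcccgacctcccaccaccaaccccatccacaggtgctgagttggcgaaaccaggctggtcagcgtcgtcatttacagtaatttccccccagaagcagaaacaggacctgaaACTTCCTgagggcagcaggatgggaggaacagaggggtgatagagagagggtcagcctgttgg
C1qc: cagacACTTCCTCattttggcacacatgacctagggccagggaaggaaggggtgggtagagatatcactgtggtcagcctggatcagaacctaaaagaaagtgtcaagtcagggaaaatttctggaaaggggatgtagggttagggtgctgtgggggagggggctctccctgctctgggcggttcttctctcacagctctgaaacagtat
Ctss: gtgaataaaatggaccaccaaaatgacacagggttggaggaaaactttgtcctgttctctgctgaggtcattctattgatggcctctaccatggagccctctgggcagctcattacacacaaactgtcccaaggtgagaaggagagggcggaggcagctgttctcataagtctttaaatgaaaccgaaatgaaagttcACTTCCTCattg
Lyz2: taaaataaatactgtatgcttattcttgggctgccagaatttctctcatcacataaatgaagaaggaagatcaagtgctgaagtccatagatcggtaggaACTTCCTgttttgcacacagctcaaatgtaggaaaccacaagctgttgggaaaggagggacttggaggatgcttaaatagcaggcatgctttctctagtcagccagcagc
Fcgr3: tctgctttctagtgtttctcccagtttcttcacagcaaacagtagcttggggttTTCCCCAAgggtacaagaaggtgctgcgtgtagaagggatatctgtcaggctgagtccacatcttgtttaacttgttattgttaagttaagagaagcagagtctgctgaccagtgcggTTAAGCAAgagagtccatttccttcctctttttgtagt

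The match in C1qb ends 47 bases before the start, that in Lyz2 94 bases before it and that in C1qc 188 bases before it. In Ctss the match lies across the start itself, from 2 bases before it. Fcgr3 has no PU.1 core in its window and 2 matches to TTNCNNAA. They end 139 and 21 bases before the start site inside the gene. The longer box GAGGAAGT was in 16.1% of the members' windows, those of C1qc, Cd53, Csf2rb2, Ctss and Mpo, beside 3.20% of all windows. The composite element of PU.1 with an interferon regulatory factor such as Irf8, known as EICE, was in 9.68% of the members' windows, those of Cd68, Cybb and Timd4, beside 2.72% of all. The loose CEBP sequence was about as common in the members' windows as in all windows, 41.9% beside 40.7%, and its palindrome TTGCGCAA was in 0 of 31 beside 0.183%. The RUNX sequence TGTGGT was in 22.6% of the members' windows and 16.8% of all, and the TATA box TATAAA in 12.9% and 13.6%. A match describes the letters of a window and no binding was measured.

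Among the pan-leukocyte genes, which are made by most white blood cells, 4 of 5 were higher at E10.5 in each genotype, where 25.4% of all genes were in wild type and 28.2% in Norrin, and 3 of 5 on each other scale. Ptprc encodes CD45, the surface phosphatase that defines leukocytes. It read 5.54 ± 0.48 (SD, n = 3) in the wild type E8.5 pools and 6.63 ± 0.49 in the E10.5 pools, and its rise of 1.10 (SE 0.39, adjusted p = 0.0483) was lost under both other scales and in 4 of the 6 fits that left out 1 wild type pool. Its dimmer probe set rose by 1.20 in wild type and 1.22 in Norrin. Cd53, a tetraspanin of leukocytes, rose by 1.24 (SE 0.22) in wild type and 1.50 in Norrin, but its dimmer probe set changed by -0.27 and 0.02. Coro1a, an actin regulator of blood cells, rose by 1.63 in wild type and 1.46 in Norrin (adjusted p = 0.000144 and 0.000245), and its other probe sets by 2.18 and 0.29 in wild type. Lcp1, the actin bundling protein L-plastin, rose by 0.97 in wild type and 1.30 in Norrin, and its other probe set by 1.04 and 1.40. Laptm5, a lysosomal membrane protein of blood cells, changed by 0.21 and 0.24 (adjusted p = 0.311 and 0.21), and its 4 other probe sets ran from -0.86 to 1.21 in wild type.

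The growth factor receptors split in opposite directions. Csf1r, the receptor for the macrophage growth factors Csf1 and Il34, read 8.03, 8.32 and 8.45 in the wild type pools at E8.5 and 10.30, 11.49 and 10.80 at E10.5. In Norrin it read 7.45, 7.96 and 8.07 at E8.5 and 9.89, 11.01 and 10.67 at E10.5. Every E10.5 pool lay above every E8.5 pool, and the 2 genotypes overlapped at both stages. In pools of the same number, Norrin was the lower in all 3 pairs at each stage, with differences of -0.58, -0.36 and -0.38 at E8.5 and -0.41, -0.48 and -0.13 at E10.5. Its Norrin difference was not called, with the replicate block either (adjusted p = 0.0716 and 0.0553). The rise was 2.60 in wild type, a 6.06-fold change (SE 0.32, adjusted p = 0.000105), and 2.70 in Norrin (6.49-fold, adjusted p = 6.33e-05), which is 2.46 and 2.55 above the median of all genes. Its change ranked 47 from the top of 18193 genes in wild type and 51 in Norrin. The other probe sets of Csf1r rose by 2.03 and 2.09 in wild type.

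Csf2rb and Csf2rb2 are neighbouring near-copies on chromosome 15; Csf2rb is the beta chain shared by the receptors for Csf2, Il3 and Il5, and Csf2rb2 serves Il3. A probe set assigned to both was left out. How the signal splits between them is uncertain. Csf2rb read 10.81, 10.25 and 9.17 in the wild type E8.5 pools and 7.72, 7.98 and 7.99 in the E10.5 pools. In Norrin it read 9.87, 9.48 and 7.37 at E8.5 and 7.62, 7.28 and 7.65 at E10.5. Pool 3 was the lowest of each E8.5 group, and in Norrin it lay among the E10.5 values.

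Csf2rb2 read 8.57, 8.38 and 7.38 in the wild type E8.5 pools and 5.46, 6.11 and 5.83 in the E10.5 pools. In Norrin it read 7.98, 7.67 and 5.80 at E8.5 and 5.91, 6.10 and 6.13 at E10.5. Both genes thus repeated the low pool 3 at E8.5. In wild type Csf2rb fell by 2.18 on the log2 scale (4.53-fold, adjusted p = 0.00875) and Csf2rb2 fell by 2.31 (adjusted p = 0.00275), with no overlap between stages. Csf2rb2 lay under the background at E10.5, so it was at least 1.83-fold lower there on the deposited scale. In Norrin the changes were -1.39 and -1.11 (adjusted p = 0.0588 and 0.0804). Without Norrin pool 3 of E8.5 they were -2.16 and -1.78 (adjusted p = 0.000952 and 0.00116). With pools of the same number as a block both passed at unchanged size (adjusted p = 0.000353 and 0.000897), but block p-values between stages can be too small. The dimmer probe set of Csf2rb changed by -1.67 in wild type and -1.27 in Norrin.

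Of the transcription factors, Irf8, which sets monocyte and macrophage fate, read 6.59 ± 0.24 in wild type E8.5 pools and 7.30 ± 0.21 at E10.5. Its rise of 0.72 in wild type (adjusted p = 0.00909) was 0.42 and 0.43 on the other scales (adjusted p = 0.0665 and 0.0666), and its rise of 0.93 in Norrin (adjusted p = 0.00172) held on all 3. The dimmer probe set of Irf8 rose by 1.09 and 1.34. Spi1, whose product PU.1 is required for macrophages, stayed at or under the background and changed by 0.36 in wild type and 0.35 in Norrin (SE 0.17, adjusted p = 0.139 and 0.131). With the replicate block, whose p-values between stages can be too small, those differences passed (adjusted p = 0.00557 and 0.00522). After centring the Norrin value was -0.01.

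The Fc receptor group holds antibody receptors, the adaptors that carry their signal and 2 related receptors. Tyrobp, the adaptor DAP12, had the firmest change of the group: it read 6.41 ± 0.31 in the wild type E8.5 pools and 7.74 ± 0.22 in the E10.5 pools, a rise of 1.34 (SE 0.19, adjusted p = 0.00028), and it rose by 1.42 in Norrin. Fcer1g, the gamma chain shared by Fc receptors, rose by 0.81 in wild type and 0.96 in Norrin (adjusted p = 0.0196 and 0.00669), and lost its call in wild type on both other scales. Fcgr1, the high-affinity IgG receptor, changed by 0.14 in wild type (adjusted p = 0.503) and rose by 0.49 in Norrin (adjusted p = 0.0223). Its Norrin call was lost on both other scales, and its dimmer probe set changed by 0.77 and 1.16.

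Trem2, a lipid-sensing receptor that signals through DAP12, read 6.75 ± 0.35 in the wild type E8.5 pools and 6.97 ± 0.01 in the E10.5 pools and was not called in either genotype (0.22 and 0.12, adjusted p = 0.289 and 0.563). Cd33, a lectin, changed by 0.30 in wild type (adjusted p = 0.142) and rose by 0.47 in Norrin (adjusted p = 0.0276). The Norrin change was 0.11 and 0.10 on the other scales. Fcgr3, the low-affinity IgG receptor, rose by 2.00 in wild type (3.99-fold, adjusted p = 0.00195) and changed by 0.74 in Norrin (adjusted p = 0.144), and its pools are given with the genotype comparison.

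The 3 chains of C1q, which bind antibody and dying cells and start the classical complement cascade, lie side by side on chromosome 4. All 3 rose in both genotypes. C1qb read 3.94, 4.25 and 4.78 in the wild type pools at E8.5 and 8.05, 9.05 and 8.64 at E10.5. In Norrin it read 4.0, 4.17 and 4.70 and then 8.09, 9.27 and 9.05.

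C1qb was therefore under the background in all 6 pools at E8.5 and above it in all 6 at E10.5. The measured change was 4.26 in wild type (SE 0.34, adjusted p = 7.06e-06) and 4.51 in Norrin (adjusted p = 3.65e-06). Against the background, and on the deposited scale, C1qb was at least 2.62-fold higher in wild type and at least 3.53-fold higher in Norrin. The other probe sets of C1qb changed by 3.25 and 4.52 in wild type. C1qc rose by 2.00 in wild type and 2.11 in Norrin (adjusted p = 0.000327 and 0.000188). C1qa rose by 1.17 in wild type and 1.64 in Norrin (adjusted p = 0.0228 and 0.00319), and only the Norrin rise held on all 3 scales.

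Among the surface and uptake receptors, 4 of 8 were called higher in wild type and 6 in Norrin, beside the 25.4% and 28.2% of all genes. On each other scale it was 3 higher in wild type, and 5 higher and 1 lower in Norrin. Cx3cr1, the fractalkine receptor of tissue macrophages, read 5.03, 5.18 and 5.51 in the wild type E8.5 pools and 6.68, 7.57 and 7.62 in the E10.5 pools. In Norrin it read 4.99, 5.20 and 5.26 and then 6.87, 7.30 and 7.69. The stages did not overlap and the genotypes did.

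The measured change of Cx3cr1 was 2.04 in wild type (SE 0.26, adjusted p = 0.000126) and 2.14 in Norrin. Its E8.5 means of 5.24 and 5.15 lay under the background. On the deposited scale that bounds the rise at 1.07-fold or more and 1.24-fold or more. Its dimmer probe set changed by 0.61 and 0.82. Adgre1, the surface antigen by which mouse macrophages are usually marked, rose by 1.14 in wild type and 1.68 in Norrin (adjusted p = 0.0025 and 0.000163). Cd68, a lysosomal glycoprotein of macrophages, rose by 1.03 and 1.15 (adjusted p = 0.014 and 0.00664), in wild type on the deposited scale only. Stab1, a scavenger receptor of macrophages and sinusoidal endothelium, rose by 1.14 and 0.91 (adjusted p = 0.000756 and 0.00271).

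Mrc1, the mannose receptor, changed by 0.50 in wild type and rose by 0.67 in Norrin (adjusted p = 0.121 and 0.0388), without its Norrin call on either other scale. Cd14, the lipopolysaccharide co-receptor, changed by 0.40 in wild type and rose by 0.78 in Norrin (adjusted p = 0.0652 and 0.00185). Lyve1, a hyaluronan receptor of lymphatic and yolk sac endothelium and of some macrophages, changed by -0.88 and -0.77 (adjusted p = 0.129 and 0.166). With the replicate block, whose p-values between stages can be too small, both passed (adjusted p = 0.0288 and 0.0436). Timd4, a receptor for phosphatidylserine on dying cells, stayed under the background with 5.34 ± 0.17 and 5.43 ± 0.11 in wild type. Of 12 genes that mark endothelium, 1 was higher and 3 lower at E10.5 in wild type, with a median change of -0.46; the part of endothelium in the values of Lyve1, Stab1 and Mrc1 was not tested.

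The integrins were not called between stages: Itgam, the alpha chain of the complement receptor CR3, differed by 0.00 between stages in wild type and -0.21 in Norrin, and Itgb2, its beta chain, by 0.01 and -0.17. Both stayed under the background, and on the other scales both were called lower in Norrin at -0.47 to -0.57. Among the 6 effector and lysosomal proteins, 5 were called higher in wild type and 3 in Norrin, beside the 25.4% and 28.2% of all genes. On each other scale the wild type count was 2, Ctss and Mpo, and the Norrin count 3. Ctss, the lysosomal protease cathepsin S, read 4.95, 5.55 and 5.11 in the wild type E8.5 pools and 6.75, 7.97 and 7.41 in the E10.5 pools. In Norrin it read 4.75, 5.22 and 5.03 and then 6.51, 8.08 and 7.80, so that pool 1 was the lowest of every group.

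The measured change of Ctss was 2.17 in wild type (adjusted p = 0.00105) and 2.46 in Norrin (adjusted p = 0.000389). Its E8.5 means of 5.20 and 5.00 lay under the background. On the deposited scale that bounds the rise at 1.13-fold or more and 1.40-fold or more. Mpo, the peroxidase of granulocyte and monocyte progenitors, rose by 0.91 and 0.98 (adjusted p = 0.00591 and 0.00335). Cybb, the catalytic subunit of the phagocyte NADPH oxidase, rose by 0.86 and 1.03 while under the background in every group, and its 2 other probe sets changed by -0.02 and 0.98 in wild type. Lyz2, the lysozyme of myeloid cells, rose by 0.76 in wild type (adjusted p = 0.0455) and changed by 0.58 in Norrin (adjusted p = 0.104). Aif1, the calcium-binding protein IBA1, rose by 0.58 in wild type (adjusted p = 0.037) and changed by 0.31 in Norrin. Mpeg1, a pore-forming protein of macrophages, changed by 0.55 and 0.54 (adjusted p = 0.101 and 0.0983). With the replicate block, whose p-values between stages can be too small, both passed (adjusted p = 0.000924 and 0.000911).

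**Figure D2:**
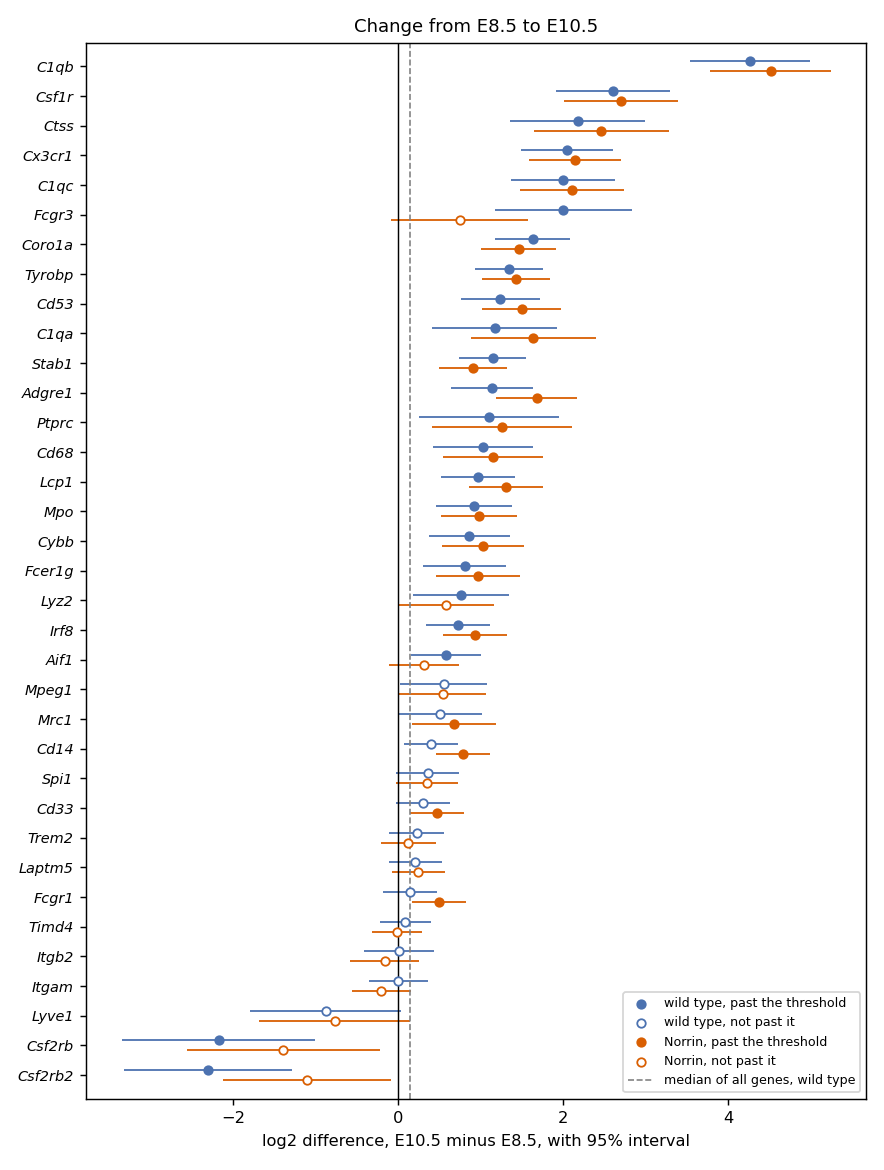
Change from E8.5 to E10.5 on the log2 scale for each member, with its 95% interval, in wild type (blue) and Norrin (orange); filled points passed adjusted p under 0.05 on the deposited scale, and the dashed line is the median of all genes in wild type. C1qb stands at 4.26 and 4.51, Csf2rb and Csf2rb2 lie furthest below 0, and 8 of the filled points in wild type and 5 in Norrin lose their call under another scale.

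**Figure D3:**
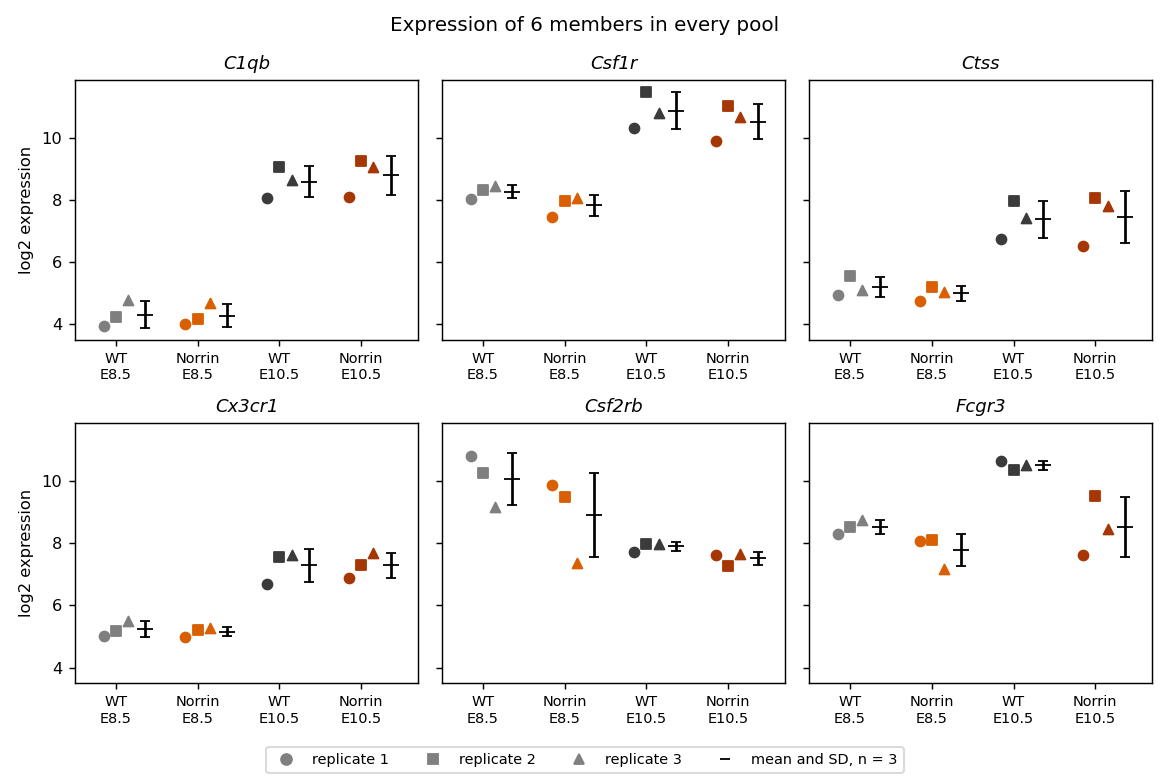
Log2 level of 6 members in each of the 12 pools, by group, with the mean and SD of the 3 pools; the marker shape is the replicate number. C1qb, Csf1r, Ctss and Cx3cr1 are higher in every E10.5 pool, Csf2rb is lower in every E10.5 pool of wild type than in its E8.5 pools, and Fcgr3 at E10.5 lies at 10.36 to 10.65 in wild type and 7.61 to 9.52 in Norrin.

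Over the pools that can be left out, 16 of the 23 members called in wild type kept their call whichever of the 6 wild type pools was left out, and 18 of 22 in Norrin whichever of the 6 Norrin pools was. Those that lost it in wild type were Ptprc, Fcer1g, C1qa, Cd68, Lyz2, Cybb and Aif1, and in Norrin Ptprc, Fcgr1, Cd33 and Mrc1. Without wild type pool 1 of E8.5, or without wild type pool 2 of E10.5, 15 members were called higher. Spi1 and Lyve1 were called without wild type pool 3 of E8.5, Cd33 and Mpeg1 without wild type pool 1 of E10.5, and Fcgr3 and Mpeg1 in Norrin without Norrin pool 1 of E10.5.

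The members also varied together between pools of a group. In each of the 4 groups most of them were lowest in pool 1: 23 and 22 of 35 in wild type and Norrin at E8.5, and 22 and 25 at E10.5. Of all genes, 44.0%, 46.3%, 23.2% and 27.0% were lowest there. At E8.5 most were highest in pool 3, 22 in wild type and 21 in Norrin, beside 48.8% and 43.8% of all genes. At E10.5 pool 2 was highest for 20 in wild type and 19 in Norrin, beside 24.6% and 26.4%. C1qa shows the size of this spread: it read 6.96, 7.70 and 7.49 in wild type at E10.5 and 6.69, 8.13 and 7.42 in Norrin. The pool that is high at E10.5 in Norrin is also the one with the highest trophoblast genes, whose part in these values was not tested, while the wild type pool 2 of E10.5 had the lowest trophoblast median of its group, 6.19.

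The comparison of genotypes asks which genes of the yolk sac respond to ectopic Norrin. At E8.5 limma called 0 of 35 members, where 0.077% of all genes were called in either direction. At an unadjusted p under 0.05, 2 were lower, Lcp1 and Adgre1, where 3.91% of all genes passed lower. Of the 35 effects 31 were below 0, beside 53.9% of all genes, and their median was -0.19, beside -0.02. Genes of other cell types lay below 0 as well: 12 of 13 of visceral endoderm (median -0.30), 12 of 14 erythroid, 6 of 7 megakaryocyte, 6 of 7 mast cell and 10 of 13 lymphocyte genes, with medians of -0.15 to -0.11 in the last 4 lists, while 2 of 10 parietal endoderm genes did. Their part in the members' values was not tested. No lean of the members as a group is tested here, and they share their pools.

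Lcp1 read 11.18, 10.64 and 11.15 in wild type at E8.5 and 10.55, 9.95 and 10.56 in Norrin, so the groups did not overlap. The difference was -0.64 (95% interval -1.09 to -0.20, adjusted p = 0.509). Adgre1 read 6.82, 7.29 and 7.20 in wild type and 6.29, 6.81 and 6.61 in Norrin, with a difference of -0.54 (95% interval -1.03 to -0.04, adjusted p = 0.673). Its Norrin values all lay under the wild type ones. In 2 further members, Fcgr3 and Cd14, each Norrin pool lay below each wild type pool, which makes 4 of 35 beside 6.02% of all genes. In 0 members was it the other way, beside 5.89%.

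With pools of the same number treated as a block, 2 members fell at E8.5, Csf2rb by 1.17 (adjusted p = 0.0301) and Csf2rb2 by 0.96 (adjusted p = 0.046), where 0.61% of all genes were called lower. Without the block their adjusted p was 0.691 and 0.707, and the labels do not say what pools of the same number share. Same-number differences were -0.94, -0.76 and -1.80 for Csf2rb and -0.59, -0.72 and -1.58 for Csf2rb2, so all pairs went down and pair 3 the most. Without Norrin pool 3 the unblocked differences were -0.40 and -0.29. By pair, 25, 30 and 30 of 35 members were lower in Norrin, beside 50.8%, 55.5% and 52.6% of all genes, and 18 were lower in all 3 pairs, beside 24.8%, and 1 was higher in all 3, beside 19.7%.

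At E10.5, 1 of 35 members was called, Fcgr3, where 4.07% of all genes were called in either direction and 2.22% lower. Fcgr3 encodes the activating low-affinity receptor for IgG immune complexes on macrophages, at chromosome 1 from 171051169 to 171065915 on GRCm38.p6. It read 10.65, 10.36 and 10.51 in wild type and 7.61, 9.52 and 8.44 in Norrin. All Norrin pools lay under all wild type pools, and their SD was 0.96 where that of the wild type pools was 0.14. The fall was 1.98 on the log2 scale, or 3.95-fold (SE 0.38, 95% interval -2.81 to -1.15, adjusted p = 0.0118), and it ranked 40 from the lowest of 18193 genes.

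The fall of Fcgr3 lay between -1.52 and -2.48 whichever E10.5 pool was left out, and limma called it in 5 of those 6 fits. Without Norrin pool 3 the difference was -1.94 (unadjusted p = 0.00107) and its adjusted p 0.053, without pool 1 it was -1.52 and still called, and without pool 2, the pool with the high trophoblast genes, it was -2.48 (adjusted p = 0.00123). At E8.5 the gene read 8.29, 8.51 and 8.74 in wild type and 8.07, 8.09 and 7.19 in Norrin. That difference of -0.73 was not called (95% interval -1.56 to 0.10, adjusted p = 0.707). The difference between the 2 Norrin effects was -1.25 (95% interval -2.43 to -0.08, unadjusted p = 0.0386, adjusted p = 0.666), so the effect of E10.5 is not shown to differ from that of E8.5. The array has 1 probe set for Fcgr3 alone. Which cells of the sac gave its signal was not tested.

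The signalling partner and the other Fc receptor among the members were not called. Fcer1g, the gamma chain it signals through, read 7.63, 8.34 and 7.81 in wild type at E10.5 and 7.46, 8.01 and 7.99 in Norrin, a difference of -0.10 (95% interval -0.61 to 0.40, adjusted p = 0.95). Those groups overlap. Fcgr1 differed by 0.12 with every Norrin pool above every wild type pool (7.10 to 7.23 against 7.05 to 7.08, adjusted p = 0.884). Csf1r, C1qb, Adgre1 and Cx3cr1 differed by -0.34, 0.22, 0.00 and 0.00 with adjusted p of 0.791 to 1.0.

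The other 34 members at E10.5 were within 0.38 of wild type, and their median difference was -0.11. The 95% interval stayed inside a 2-fold change for 30 of 35 members at E10.5 and for 25 at E8.5. At E10.5 the members whose interval reached beyond 2-fold were Csf1r, Csf2rb, Csf2rb2, Fcgr3 and Lyve1. At E8.5 they were Ptprc, Lcp1, Csf1r, Csf2rb, Csf2rb2, Fcgr3, C1qa, Adgre1, Lyve1 and Ctss. Of the members above the background in wild type at E8.5, only Laptm5, Mrc1 and Stab1 stayed inside. The rest of those inside lay at or under that background, where small changes could not be measured, so their intervals do not exclude a change. Of the 35, 24 effects were below 0, beside 51.0% of all genes. Each Norrin pool was below each wild type pool in 4 members, Fcgr3, Csf2rb, Trem2 and Stab1, beside 11.5% of all genes, and above it in 1, Fcgr1, beside 11.4%. By pair 27, 23 and 18 members were lower, beside 53.8%, 47.4% and 49.8% of all genes, and 11 were lower and 3 higher in all 3 pairs, beside 24.1% and 24.3%.

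For the difference of the Norrin effect between the stages limma called 0 of 35 members, where 0.0934% of all genes were, and at an unadjusted p under 0.05 the only member was Fcgr3, where 7.01% of all genes passed. Csf2rb2 had a difference of 1.21 (95% interval -0.23 to 2.64, adjusted p = 0.805, or 0.0525 with the replicate block). Since both stage comparisons and both genotype comparisons use the same pools, their values are given side by side and nothing is read from their likeness.

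**Figure D4:**
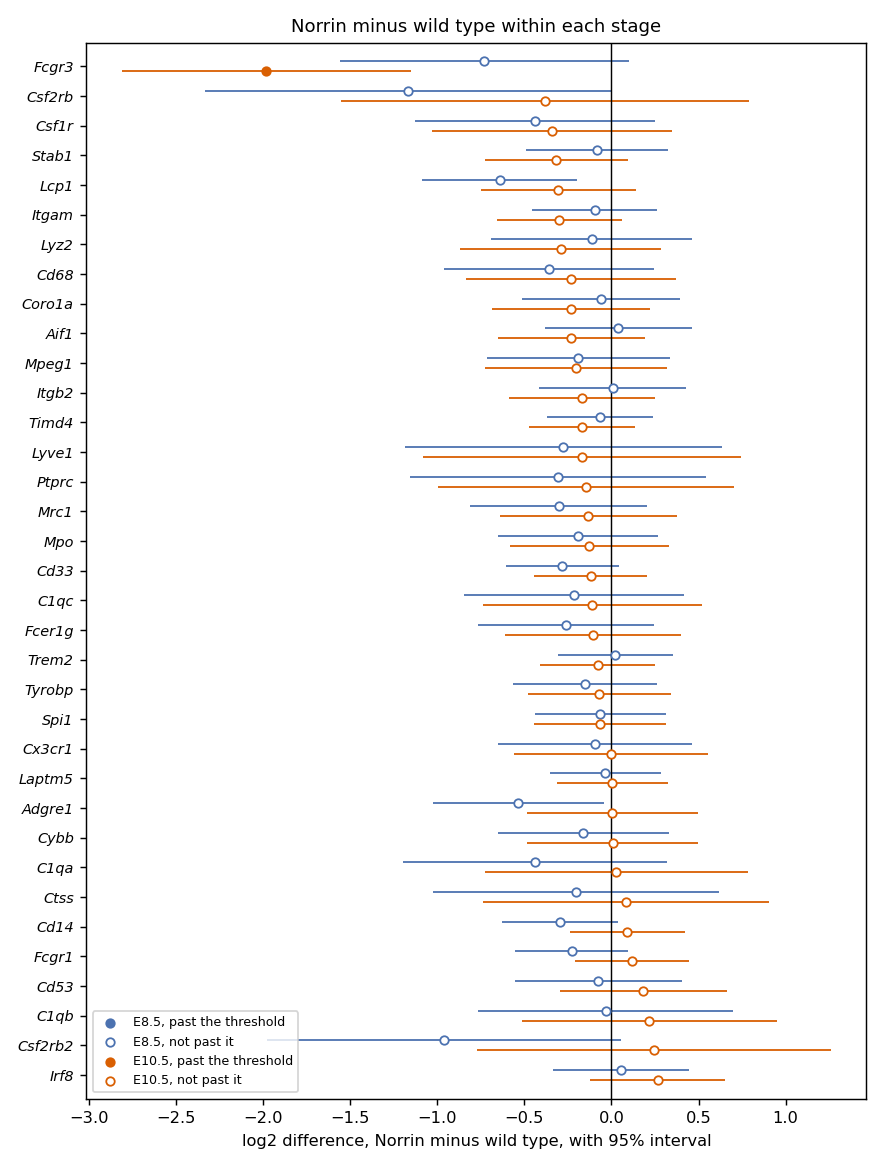
Norrin minus wild type on the log2 scale for each member, with its 95% interval, at E8.5 (blue) and E10.5 (orange). Fcgr3 at E10.5 is the only interval far from 0, at -1.98, and most E8.5 points lie slightly left of 0, with a median of -0.19.

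Around the members, the other genes of their pathways were read from lists chosen with earlier results of these data known. Of their 104 distinct genes, limma called 0 between genotypes at E8.5 (2 higher and 4 lower at an unadjusted p under 0.05, where 3.31% and 3.91% of all genes passed). At E10.5 it called 2 higher and 3 lower, where 1.85% and 2.22% of all genes were called, and 5 and 12 passed the unadjusted threshold, beside 6.77% and 7.27%. The shares of the lists that were called are near those of all genes. Of the myeloid growth factors and their other receptors, 0 of 9 measured were called between genotypes at either stage. Csf1, the main ligand of Csf1r, read 8.40 in the wild type E8.5 pools and 8.66 in the E10.5 pools, and its Norrin differences were -0.11 and 0.34 (adjusted p = 0.918 and 0.632). Csf2, the granulocyte and macrophage factor, differed by -0.42 at E10.5 (adjusted p = 0.164). Between stages in wild type 2 of the 9 were higher on the deposited scale and 1 after centring, beside 25.4% and 12.9% of all genes. After centring 1 was lower, beside 26.5% of all genes.

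Among 13 measured transcription factors of myeloid cells outside the members, 1 rose and 2 fell in Norrin at E10.5 and 0 changed at E8.5. Cebpa, which directs granulocyte and monocyte progenitors and is also made in endoderm, fell by 2.99 (adjusted p = 0.000587), from 10.77 to 7.78. Nr1h3, the oxysterol receptor of macrophages and liver, fell by 0.93 (adjusted p = 0.00738). Klf4, a factor of monocytes and of epithelia, rose by 2.00 (adjusted p = 0.0014). Ikzf1, which acts in most blood lineages, differed by -1.15 (adjusted p = 0.24).

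These factors are not particular to macrophages, and other cell types of the sac moved at E10.5 too: in Norrin 4 of 13 visceral endoderm genes fell, with a median of -0.71, and 9 of 14 erythroid genes fell, with a median of -1.46, while 5 of 10 parietal endoderm genes rose, with a median of 0.84. Their part in the values of Fcgr3, Cebpa, Nr1h3 and Klf4 was not tested.

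Among the signalling and effector lists, few genes passed between genotypes at E10.5 and 0 at E8.5. The 9 kinases and effectors downstream of ITAM adaptors had 0 calls at either stage, with differences from -0.10 to 0.24 at E10.5. The 4 partners of Cybb in the NADPH oxidase had 0, with Ncf4, a cytosolic subunit, at -0.84 (adjusted p = 0.055). Of 5 primary granule proteins 1 rose, the proteoglycan Srgn by 1.33 (adjusted p = 0.00676), a gene that is also among the parietal endoderm markers. Of 8 complement genes outside C1q 1 fell, the protease C1s1 by 1.09 (adjusted p = 0.0498).

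The 13 toll-like receptors and partners, the 10 chemokines and chemokine receptors and the 9 neutrophil granule proteins had 0 calls between genotypes at either stage. The 18 resident macrophage genes and the 7 genes known from microglia had none either. The resident gene with the largest difference was Axl, a receptor for dying cells, at 0.90 in E10.5 Norrin (adjusted p = 0.202). With the replicate block at E10.5, where 13.2% of all genes were called, Ikzf1, Ncf4, Cyba, Csf2, Ly96, Ccr2, Sall1, Mertk, Hpgds, Pf4, C2, C1ra and Cfb were also lower and Axl higher. At E8.5 the block added Tlr4, higher by 0.56.

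Between the stages the same lists ran partly with the members. Of all genes in wild type, 25.4% were called higher, 12.9% after centring and 16.0% after quantile normalisation. In Norrin it was 28.2%, 12.9% and 16.9%. Called lower were 7.12%, 26.5% and 20.1% of all genes in wild type and 9.69%, 32.7% and 20.9% in Norrin. In wild type 8 of 10 chemokines and their receptors were higher at E10.5, and 5 under either other scale, and in Norrin 7 under all 3 scales. Of 18 resident macrophage genes 7 were higher and 2 lower in wild type, which became 5 and 5 after centring and 5 and 4 after quantile normalisation. Of 7 microglia-type genes 3 were higher, and 2 under the other scales. Of 13 toll-like receptors and partners 6 were higher and 0 lower, becoming 4 and 1 after centring. Of 9 neutrophil granule proteins 0 were higher and 1 lower in wild type, while in Norrin 3 were higher, Camp, Mmp8 and S100a9, and 0 lower, which became 0 higher and 1 lower on each other scale. The 3 of 9 in Norrin lie near the share of all genes.

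Some markers of other white blood cells were above the background. Among 9 neutrophil granule genes 1 was above the background in each group, and among 7 mast cell and basophil genes 0 or 1. Among 13 lymphocyte genes 4 were above it in each E8.5 group and 3 in each E10.5 group. Of the 35 members it was 9 and 10 at E8.5 and 22 and 24 at E10.5, beside 55.4% to 61.0% of all genes. At E8.5 the members' share was no higher than that of the lymphocyte genes. The median lymphocyte level lay between 6.01 and 6.48 in all 12 pools. Pf4 is in the megakaryocyte list and in the resident macrophage list, and the part of megakaryocytes in its rise of 2.26 was not tested.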

How the data were processed

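RNA from 12 pools was hybridised to Affymetrix mouse arrays, 3 per group. The deposited values are log2 intensities summarised with RMA, per the submitters' processing notes; its version and build are not given in the sources used here. Among 45101 probe sets were 64 controls, 34945 assigned to 1 gene, 932 to several and 9160 unnamed; 34741 matched RefSeq by gene identifier. For each of 18193 genes the probe set with the highest mean over the 12 arrays was used. limma 3.58.1 (R 4.3.3) was fitted with 1 mean per group (8 residual degrees of freedom), two-sided, with Benjamini-Hochberg adjustment over all genes, and was tested on simulated data. The number of arrays limits the precision.

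The members and lists were chosen with earlier results of these data known. Every member is named, with single-pool values for members called between genotypes or with the 6 largest stage changes in wild type. In lists, genes called between genotypes or with the largest differences are named. Pools of the same number deviated together (correlation 0.73, 0.32 and 0.73 at E8.5 and 0.51, 0.21 and 0.22 at E10.5), so the number was also fitted as a block, which is printed where it changes a call. Other alternatives were centred arrays, quantile normalisation, only genes above the background, the mean of probe sets, each stage alone and each pool left out.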

Additional observations from a re-analysis of the deposited data

How the results depend on the processing

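The counts of members called were 0 between genotypes at E8.5, 1 at E10.5, 0 for the difference between stages, 23 between stages in wild type and 22 in Norrin. With the replicate block the E8.5 count was 2, and the paired fit changed no genotype call of a member at E10.5. Between stages the block gave 29 in each genotype, but its p-values there can be too small, since each block lies within a stage. Centred arrays and quantile normalisation each gave 15 between stages in wild type, and 23 (18 higher, 5 lower) and 22 (17 and 5) in Norrin; the cause was not tested. With 1 pool left out the counts ran from 0 to 0 at E8.5, 0 to 1 at E10.5, 0 to 0 for the difference between stages, 17 to 25 between stages in wild type and 18 to 24 in Norrin. The count of 0 at E10.5 came without Norrin pool 3. No called value changed sign. Taking the 90th instead of the 95th percentile set the background at 6.88 (wild type) and 6.73 (Norrin) for E8.5, and at 6.92 (wild type) and 6.97 (Norrin) for E10.5. Against that level Spi1, Trem2 and Cd33 lay above the background in wild type at E10.5. Spi1 did so in Norrin at E10.5 as well, and Spi1 and Trem2 did in Norrin at E8.5. At a signal under the background, which 10 members had in every group at the 95th percentile, small changes could not be measured.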
